A study of Mus musculus with 6 samples.

Results

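Npl encodes N-acetylneuraminate pyruvate lyase, the enzyme that splits free sialic acid, and it was examined here with 9 genes that make, activate, move, release or recycle sialic acid: Gne, Nans, Nanp, Cmas, Slc17a5, Neu1, Neu3, Nagk and Renbp. Npl was chosen by its large difference between the lines on these same arrays, so its values are given as a description with no test. The other 9 genes were listed for their roles around it, with earlier results of these data known. All 10 genes were measured, out of 19930 genes on the array. Where a gene had several features, the one with the highest mean over the 6 arrays was taken. H10 cells, an osteoclastogenic line, were set against C8 cells, a non-osteoclastogenic one, and both had been derived from the mouse macrophage line RAW264.7. Both lines carried a retroviral Lifeact-mEGFP construct, which marks actin,, had been isolated as puromycin-resistant clones by limiting dilution, and were cultured for 2 days with sRANKL, the soluble form of the osteoclast-inducing cytokine, at 60 ng/mL. Each phenotype therefore rests on 1 line, and osteoclastogenic capacity cannot be told apart from other differences between the lines. There were 3 arrays of H10 cells and 3 of C8 cells. The paper describes its experiments as done in triplicate, but the labels and methods do not tie each array to a culture of its own, and the p-values may rest on array-to-array spread that is only technical.

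Sialic acids are acidic sugars that cap the glycans of surface and secreted proteins and of gangliosides. They are built in the cytosol from UDP-GlcNAc, activated to CMP-sialic acid in the nucleus, and added to glycans in the Golgi apparatus by sialyltransferases. Sialidases remove them again, mainly in the lysosome, and the free sugar that leaves the lysosome is either activated anew or split by Npl into N-acetylmannosamine and pyruvate. In osteoclast precursors, surface sialic acid is known as a ligand of Siglec-15, a receptor that takes part in osteoclast formation.

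The stretch in front of Npl is shown because Npl is the gene on which the comparison turns. The 250 bases before its annotated start were read from the RefSeq promoter table of GRCm38.p6 (chr1:153549715-153549964, minus strand, written 5′ to 3′ along the gene). Capitals mark an E-box, the letters CACGTG, which begins 51 bases before the start.
Npl promoter: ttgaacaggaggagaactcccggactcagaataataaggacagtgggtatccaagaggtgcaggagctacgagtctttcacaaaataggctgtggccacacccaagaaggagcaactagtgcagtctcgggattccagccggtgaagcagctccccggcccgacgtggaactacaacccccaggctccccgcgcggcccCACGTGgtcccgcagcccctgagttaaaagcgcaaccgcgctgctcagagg
The E-box letters were searched for after this sequence had been read, on both strands, and 6.02% of all promoters in the table hold them in a window of the same length. The letters of 6 other motifs were searched on both strands and had 0 matches in the window. The letters searched for factors of the osteoclast lineage were GAGGAA for PU.1, which 23.3% of all promoters hold, TGANTCA for AP-1, which 6.75% hold, TGGAAA for NFAT, which 18.6% hold, and the M-box TCATGTG, which 3.25% hold. The letters searched for general promoter elements were TATAAA, which 12.4% hold, and the GC box GGGCGG, which 32.7% hold. The window holds 15 CpG dinucleotides and is 59.6% G and C, against a median of 6 CpG dinucleotides and 52.4% over all promoters. Of all promoters, 74.6% hold as many CpG dinucleotides or fewer. These are descriptions of letters. The E-box letters were not assigned to a factor or sorted by lineage, and no factor's binding was measured. The table held promoters for 8 of the 10 genes, not for Nans or Nanp, and among those 8 the E-box letters were found only in Npl.

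The values are on a log2 scale, after RMA (robust multi-array average) normalization by the authors. The array medians were 7.69 to 7.72 in H10 and 7.65 to 7.74 in C8 cells, and the upper quartiles were 9.86 to 9.88 in H10 and 9.83 to 9.94 in C8 cells. All 10 genes lay above the median on each of the 6 arrays, which is not a test of expression because background was not measured. That median is over all 35545 features, of which 12143 had no gene symbol, and the share of all genes above it was not counted. Of 10 macrophage markers, 7 lay above the median on all arrays, among them Cd68, Csf1r, Lyz2 and Spi1, while the mannose receptor gene Mrc1 lay near the lower quartile (mean log2 value 6.42 in H10 and 6.40 in C8 cells). By limma 1 of these 10 was higher in H10 cells and 0 were lower at an adjusted p under 0.05 (4 higher and 0 lower at an unadjusted p under 0.05). The 1 higher gene was Adgre1, which encodes the macrophage surface protein F4/80, with a log2 fold change of 2.02 (adjusted p = 0.00114 from limma). The median log2 fold change of the 10 macrophage markers was 0.05. Of 10 osteoclast markers 6 were higher in H10 cells and 0 lower by the same test. The paper had already reported Ctsk, Ocstamp, Dcstamp and Oscar as higher in H10 cells on these arrays. Their part of this count is a description. Among the markers that did not pass, Mmp9 and Car2 had log2 fold changes of -0.34 and -0.20, and Calcr and Itgb3 of 0.07 and 0.06. Of 15 measured markers of other cell types 0 differed by that test (0 higher and 2 lower at an unadjusted p under 0.05). Over all genes 1.85% were higher and 1.04% lower at an adjusted p under 0.05, and 6.1% were higher and 7.67% lower at an unadjusted p under 0.05. Of the 15 markers 12 lay below the median on all arrays. The part of these differences in the results on sialic acid genes was not tested. The replicate 1 arrays of both lines stood apart from the other arrays on the second principal component. In a bulk extract, fewer cells that express a gene and less of its RNA per cell cannot be told apart.

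Npl, which splits free sialic acid, was far lower in H10 cells. Its log2 values were 9.54, 9.69 and 9.73 in H10 cells, against 12.44, 12.19 and 12.23 in C8 cells. The arrays of each line lay close together and the lines did not overlap, with a gap of 2.46 between the highest H10 and the lowest C8 array. The mean was 9.65 ± 0.10 in H10 cells and 12.29 ± 0.13 in C8 cells (SD, n = 3 each), a log2 fold change of -2.63, with H10 cells 6.2-fold lower. By the size of this value Npl had rank 2 from the lowest among the 19930 genes, after Zfp991, a zinc finger gene, and before Pxdn, which encodes the extracellular matrix enzyme peroxidasin (log2 fold changes of -2.79 and -2.25). Npl was above the upper quartile of every C8 array and remained between the median and the upper quartile of every H10 array, so its level was not at the dim end of the scale in either line.

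**Figure D1:**
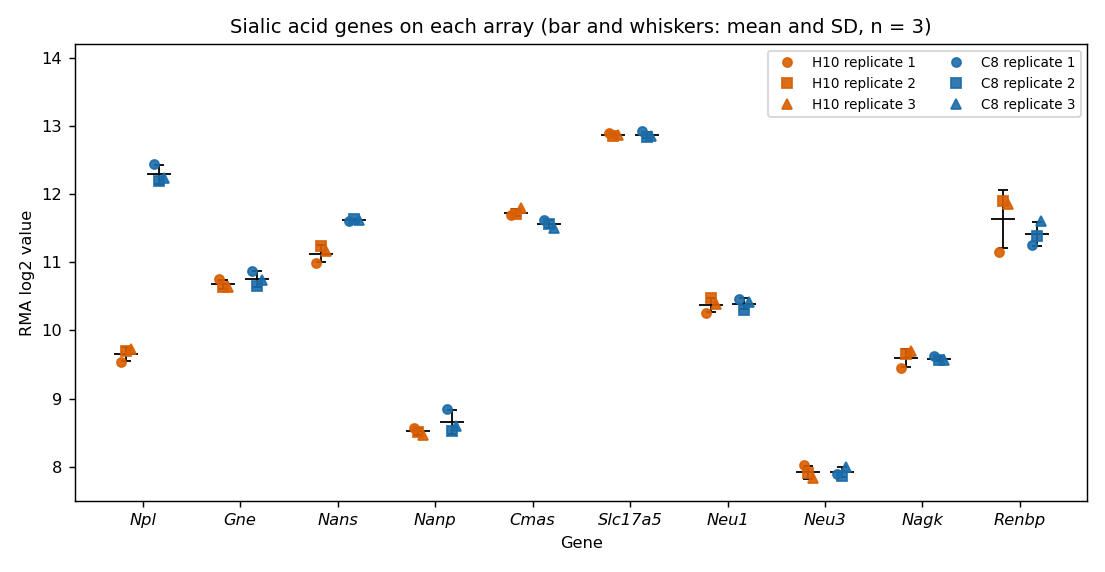
RMA log2 values (vertical axis) of the 10 sialic acid genes on each H10 array and each C8 array, with H10 left of C8, symbols for the replicate number, and bars and whiskers for the mean and SD of a line (n = 3). The lines are widely apart only for Npl, at 9.54 to 9.73 in H10 and 12.19 to 12.44 in C8 cells. Levels are comparable between lines but not between genes.

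Of the synthesis genes, Nans was lower in H10 cells, and Gne, Nanp and Cmas did not pass the test. Nans encodes the synthase that joins N-acetylmannosamine 6-phosphate to phosphoenolpyruvate and so forms the phosphate of sialic acid. It had log2 values of 10.99, 11.23 and 11.16 in H10 cells, against 11.61, 11.63 and 11.62 in C8 cells. All H10 arrays were below all C8 arrays, and the C8 arrays were almost identical. Nans fell by 0.49 on the log2 scale (standard error 0.08, 95% confidence interval -0.68 to -0.31, adjusted p = 0.0311 from limma over all 35545 features), which puts H10 cells 1.41-fold below C8 cells. The direction was kept, but the test was not passed, when any 1 array was left out: H10 replicate 1, 2 or 3 gave an adjusted p = 0.0598, 0.0681 and 0.128, and C8 replicate 1, 2 or 3 gave an adjusted p = 0.0751, 0.114 and 0.115.

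Gne encodes the bifunctional epimerase and kinase that opens the pathway and sets its rate. Its log2 values were 10.75, 10.64 and 10.64 in H10 cells and 10.87, 10.65 and 10.74 in C8 cells. The lines overlapped, and the log2 fold change of -0.08 had an interval of -0.26 to 0.11 (adjusted p = 0.828). Nanp encodes the phosphatase that frees sialic acid from its phosphate. It had 8.57, 8.51 and 8.47 in H10 cells and 8.85, 8.53 and 8.59 in C8 cells, with a log2 fold change of -0.14 (interval -0.37 to 0.09, adjusted p = 0.701). C8 replicate 1 was the highest of the 6 arrays for both Gne and Nanp, and without it their log2 fold changes were -0.02 and -0.04. Without C8 replicate 2 that of Gne was -0.13. A second Nanp feature, annotated with the same transcripts and just below the first in mean level, had a log2 fold change of -0.16 (interval -0.42 to 0.10, adjusted p = 0.693), so the choice between them hardly moved the value.

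Cmas encodes the nuclear enzyme that couples sialic acid to CMP and so makes the donor that sialyltransferases use. Its log2 values were 11.69, 11.7 and 11.79 in H10 cells and 11.62, 11.56 and 11.5 in C8 cells. The lines did not overlap, by a narrow gap of 0.07, with H10 cells on the upper side. The log2 fold change was 0.17 (standard error 0.06, interval 0.01 to 0.32), and it did not pass the test across all features (adjusted p = 0.377, unadjusted p = 0.0385).

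The genes that release sialic acid and carry it out of the lysosome were at nearly the same level in both lines. Slc17a5 encodes sialin, the exporter of free sialic acid from the lysosome. It had 12.89, 12.85 and 12.87 in H10 cells and 12.92, 12.84 and 12.85 in C8 cells, a log2 fold change of 0.00 with the narrow interval of -0.14 to 0.14. Neu1, the lysosomal sialidase, ranged over 10.26 to 10.47 in H10 and 10.30 to 10.46 in C8 cells, with a log2 fold change of -0.02 (interval -0.21 to 0.17). Neu3, the sialidase of the plasma membrane that acts on gangliosides, ranged over 7.83 to 8.02 in H10 and 7.87 to 8.00 in C8 cells, with a log2 fold change of 0.00 (interval -0.18 to 0.18). The values of Neu3 lay only just above the array medians. The adjusted p-values of these 3 genes were 0.971 to 1. Their intervals leave room for differences of about 0.2 in either direction but not for one of the size seen for Npl.

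Of the genes for amino sugar recycling next to the Npl step, neither passed the test. Nagk encodes the kinase that returns N-acetylglucosamine to the hexosamine pool. It ranged over 9.45 to 9.70 in H10 and 9.56 to 9.62 in C8 cells, with a log2 fold change of 0.02 (interval -0.17 to 0.21, adjusted p = 0.971). Renbp encodes the epimerase that interconverts N-acetylmannosamine, a product of Npl, and N-acetylglucosamine. Its log2 values were 11.15, 11.9 and 11.85 in H10 cells and 11.25, 11.38 and 11.61 in C8 cells. H10 replicate 1 lay below all other arrays and the other H10 arrays above all C8 arrays. The log2 fold change was 0.22 (interval -0.29 to 0.73, adjusted p = 0.815), and it hung on single arrays. It was 0.46 without H10 replicate 1 (adjusted p = 0.218), 0.09 without H10 replicate 2, 0.11 without H10 replicate 3 and 0.14 without C8 replicate 1 (adjusted p = 0.842 to 0.994). Renbp had the widest interval of the 9 tested genes, so a difference in either direction within its bounds was not excluded.

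**Figure D2:**
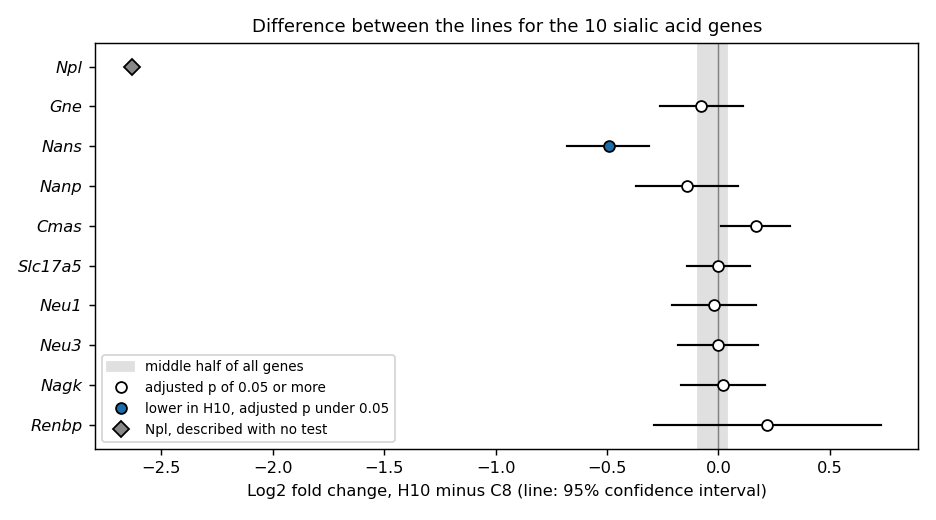
Log2 fold change of each of the 10 genes, H10 minus C8 (horizontal axis), with 95% confidence intervals from limma as lines, filled circles for an adjusted p under 0.05, and a grey band between the lower and upper quartiles of all genes (-0.09 to 0.04). Npl, shown as a diamond with no test, lies at -2.63, and the other 9 genes lie between -0.49 and 0.22.

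Of the 9 genes other than Npl, 1 (Nans) was lower in H10 cells at an adjusted p under 0.05 and 0 were higher (1 lower, Nans, and 1 higher, Cmas, at an unadjusted p under 0.05). Over all genes, 1.04% were lower and 1.85% higher by the same adjusted p, and 7.67% lower and 6.1% higher by the unadjusted p. Their median log2 fold change was 0.00, beside -0.03 over all genes. Among the 10 genes, the H10 arrays lay entirely below the C8 arrays for Npl and Nans and entirely above them for Cmas, and over all genes this held for 12.7% and 7.74%. Npl entered this count through the choice of the genes, so it is no support for a direction.

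The genes that use, modify or supply sialic acid were examined through 4 further lists, in which 42 genes were analysed. By the same test 1 of these 42 was higher in H10 cells, 0 were lower and 41 missed the threshold (9 higher and 4 lower at an unadjusted p under 0.05), with a median log2 fold change of 0.01. The shares over all genes were 1.85% higher and 1.04% lower by the adjusted p, and 6.1% higher and 7.67% lower by the unadjusted p.

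The gene that rose was 1 of 20 sialyltransferases, the Golgi enzymes that attach sialic acid, and the other 19 did not pass (3 of the 20 were higher and 2 lower at an unadjusted p under 0.05). The shares over all genes were 1.85% higher and 1.04% lower by the adjusted p, and 6.1% higher and 7.67% lower by the unadjusted p. St6galnac4, which adds sialic acid in α2,6-linkage to sialylated O-glycans, had log2 values of 11.09, 11.11 and 11.08 in H10 cells and 10.77, 10.56 and 10.65 in C8 cells. The lines did not overlap, and the log2 fold change was 0.43 (standard error 0.07, interval 0.26 to 0.60, adjusted p = 0.0376 from limma). Leaving out C8 replicate 1 kept this call (adjusted p = 0.0286), whereas leaving out any H10 array, C8 replicate 2 or C8 replicate 3 lost it (adjusted p = 0.111 to 0.163), as did median centring (adjusted p = 0.0752).
The largest difference in the family was that of St3gal6, which adds α2,3-linked sialic acid and had 9.8, 11.22 and 10.95 in H10 cells and 11.47, 11.72 and 11.63 in C8 cells. All H10 arrays were below all C8 arrays, with H10 replicate 1 far below the others. The log2 fold change of -0.95 (interval -1.78 to -0.12, adjusted p = 0.342) was -0.52 without that array (adjusted p = 0.16).
St3gal4, another α2,3-sialyltransferase, had 9.7, 9.6 and 9.44 in H10 cells and 10.03, 10.05 and 9.92 in C8 cells. Its lines did not overlap either, and its log2 fold change was -0.42 (interval -0.62 to -0.22, adjusted p = 0.0743). It passed when dim features were left out (adjusted p = 0.0277). Over the 20 sialyltransferases the median log2 fold change was -0.04. Of the 20 genes, 10 lay above the array median on all arrays and 8 below it on all arrays.

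The other 3 lists held no gene that passed the test. Of the 6 other sialic acid enzymes and transporters (0 at an unadjusted p under 0.05), the log2 fold changes ran from -0.13 for Casd1, which O-acetylates sialic acid, to 0.18 for Siae, which removes that acetyl group. Slc35a1, the Golgi transporter for CMP-sialic acid, had 0.01 (interval -0.23 to 0.24), and it was named after its values were seen. Of 8 genes of amino sugar supply and salvage (1 higher and 1 lower at an unadjusted p under 0.05), Gfpt1, the entry enzyme of the hexosamine pathway, had 0.28 (interval 0.05 to 0.51, adjusted p = 0.312) and Pgm3, a mutase of the same pathway, 0.24 (interval -0.16 to 0.64, adjusted p = 0.715). The 1 lower gene was Gnpda2, named after its values were seen, with -0.23 (interval -0.36 to -0.10, adjusted p = 0.122). The median log2 fold change of these 8 genes was -0.05. The shares over all genes at an unadjusted p under 0.05 were 6.1% higher and 7.67% lower.
The 8 lysosomal genes of sialoglycan breakdown had a median log2 fold change of 0.18, beside -0.03 over all genes. The H10 arrays lay entirely above the C8 arrays for 5 of the 8, and the same 5, Glb1, Gm2a, Manba, Fuca1 and Aga, were higher at an unadjusted p under 0.05, with 1 lower, Hexa. Over all genes the arrays lay so for 7.74%, and 6.1% were higher and 7.67% lower at an unadjusted p under 0.05. The largest values were 0.27 for Gm2a, the activator protein of ganglioside breakdown (interval 0.06 to 0.48, adjusted p = 0.258), and 0.26 for Manba, a mannosidase (interval 0.07 to 0.45, adjusted p = 0.246). Ctsa, the protease that protects Neu1 in the lysosome, also named after its values were seen, had 0.02 (interval -0.13 to 0.16).

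**Figure D3:**
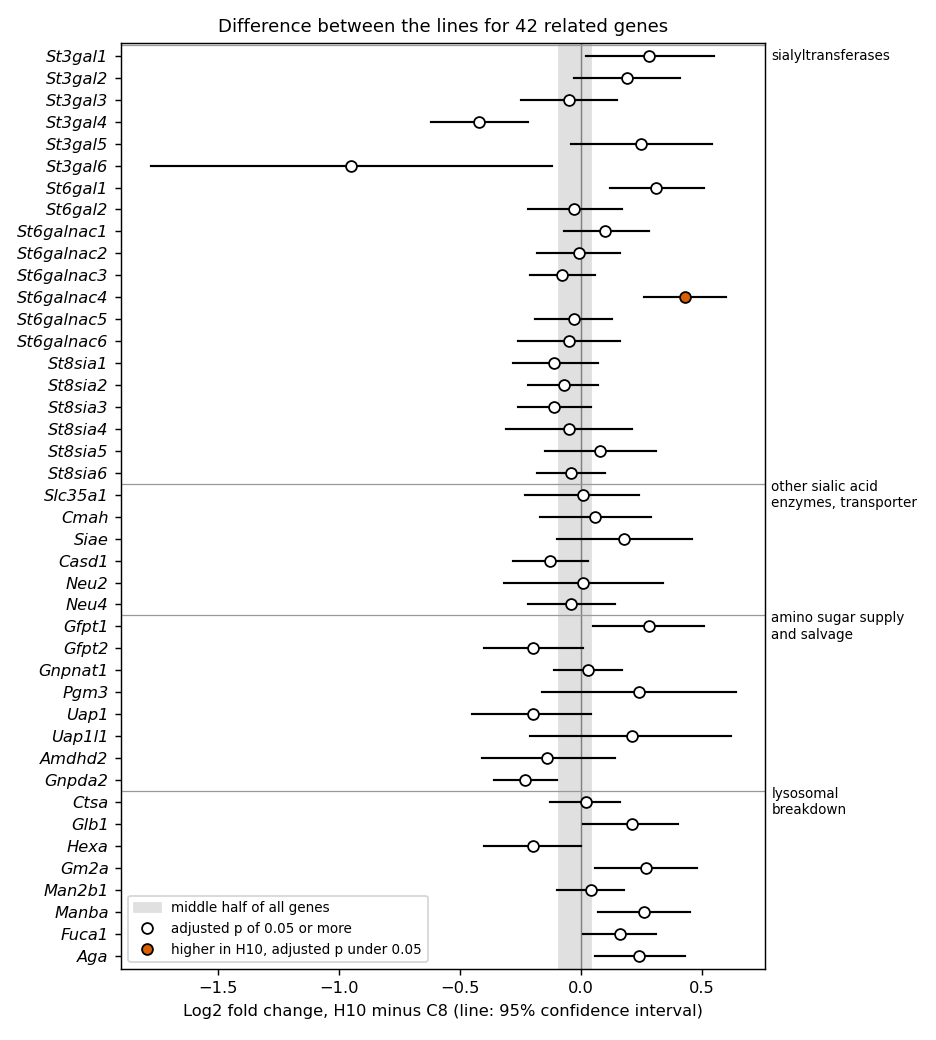
Log2 fold change, H10 minus C8 (horizontal axis), of the 42 related genes in 4 lists, with 95% confidence intervals from limma as lines and a grey band between the lower and upper quartiles of all genes. The filled circle is St6galnac4 at 0.43, and St3gal6 at -0.95 has the widest interval, -1.78 to -0.12.

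Npl lies on chromosome 1 of GRCm38.p6, and the difference was not seen at like size in the genes around it. The 5 nearest measured genes on each side had log2 fold changes from -0.73 to 0.42, and 0 of the 10 passed the test (1 lower, Rgs16, at an unadjusted p under 0.05). The shares over all genes were 1.85% higher and 1.04% lower by the adjusted p, and 6.1% higher and 7.67% lower by the unadjusted p. The nearest on one side, Dhx9, an RNA helicase gene, had 11.84, 11.82 and 11.83 in H10 cells and 11.8, 11.89 and 11.8 in C8 cells, a log2 fold change of 0.00 (interval -0.14 to 0.14). The nearest on the other side, Rgs8, had -0.13 (interval -0.40 to 0.14, adjusted p = 0.781). Rgs16, the next gene beyond Rgs8, encodes a regulator that shortens G protein signals. It had 10.91, 10.36 and 10.49 in H10 cells and 11.71, 11.07 and 11.17 in C8 cells, with no overlap and a log2 fold change of -0.73 (interval -1.23 to -0.23, adjusted p = 0.202). Lamc1, a laminin chain gene, had 0.42 (interval -0.10 to 0.94, adjusted p = 0.56), and this was 0.23 without H10 replicate 1 and 0.24 without C8 replicate 3.

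**Figure D4:**
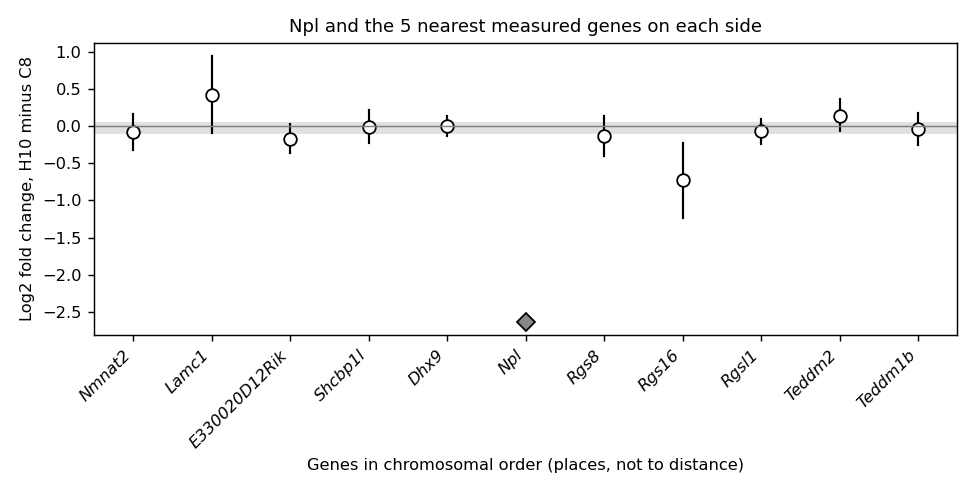
Log2 fold change, H10 minus C8 (vertical axis), of Npl (diamond, no test) and of the 5 nearest measured genes on each side in chromosomal order (circles, lines for 95% confidence intervals), with a grey band between the lower and upper quartiles of all genes. Npl lies at -2.63, and its 10 neighbours lie between -0.73 and 0.42.

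The genes whose pattern over the 6 arrays was most like that of Npl were found by the root mean square difference between values centred on each gene's own mean, in log2 units. Pxdn was closest, at 0.27, with log2 values of 8.93, 8.53 and 8.61 in H10 cells and 11.13, 10.94 and 10.76 in C8 cells. Zfp991 followed at 0.33, Rpgrip1, a gene of the photoreceptor cilium, at 0.35, Gja1, which encodes the gap junction protein connexin 43, at 0.41, and Mkx, a homeobox gene known from tendon, at 0.45. Their log2 fold changes were -2.25, -2.79, -1.95, -2.12 and -1.80. Since these genes were ranked by likeness to Npl, their lower values in H10 cells follow from that ranking and are a description. The mean of Zfp991 in H10 cells, 4.81, was under the lower quartiles of the H10 arrays (6.38 to 6.44), and those of Rpgrip1 and Mkx, 7.03 and 6.74, were below the medians, so the sizes of these 3 differences are uncertain. No sialic acid gene was among the 5.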

How the data were processed

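Total RNA of 3 H10 and 3 C8 samples had been hybridised to Affymetrix Mouse Gene 1.0 ST arrays. The authors deposited log2 values normalized with RMA, which corrects background, equalizes arrays and summarises probes. Affymetrix Expression Console is named in the submitters' processing notes. Its version, and the genome build of the annotation, were not given in the sources used here. No filter was applied to the deposited values. Features with 1 gene symbol (21781 of 35545) stood for 19930 genes. The comparison of H10 with C8 used limma 3.58.1 (R 4.3.3, lmFit, eBayes, two-sided, 4 residual and 2.57 prior degrees of freedom), the method the paper names. Benjamini-Hochberg adjustment was over 35545 features, with a threshold of 0.05. The paper's calls also required a minimum fold change, which was not applied here. The fit was tested on simulated data with planted changes larger than those of Nans and St6galnac4. Differences as small as theirs were not covered by it. The number of arrays limits the precision.

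The genes and lists were chosen with earlier results of these data known. Named were the 10 genes; from each list, up to 4 past the test in each direction and the 2 largest differences that did not pass; the 5 genes most like Npl; and its 5 nearest measured genes on each side in the gene table of GRCm38.p6. Slc35a1, Gnpda2, Ctsa, Glb1, Fuca1, Aga, Hexa and the marker genes were named after their values were seen. Alternatives left out each array, took the replicate number as a block, used quantile normalization, median centring, a filter on dim features, a trended robust prior, the mean of a gene's features, or adjustment over 1 feature per gene. Leaving out both replicate 1 arrays was added after seeing the data. Plots were made in Python 3.11.15 with matplotlib 3.10.9.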

Additional observations from a re-analysis of the deposited data

How the results depend on the processing

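The log2 fold change of Npl lay between -2.68 and -2.50 over 12 alternatives, and -2.50 was the value without both replicate 1 arrays. Among the 9 other sialic acid genes, Nans was the 1 gene lower in H10 cells; this count was 0 without any single array (0 to 0), 0 without both replicate 1 arrays and 0 with the replicate number as a block. The adjusted p of Nans was 0.0101 to 0.128 over 14 alternatives, and its log2 fold change -0.55 to -0.42. The count of higher genes among these 9 was 0 in all of them. Of the related genes, the count of higher ones (1, St6galnac4) was 0 to 1 with single arrays left out, 0 without both replicate 1 arrays, 0 after median centring and 0 with the replicate block, and the count of lower ones (0) was 1 when dim features were left out (St3gal4). That filter kept 17939 features, and 29 of the 42 related genes, so fewer were tested. The cause of these changes in the counts was not tested.

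The deviations of same-numbered H10 and C8 arrays from their line means correlated at 0.166, -0.0043 and -0.12 across features. The replicate numbers were therefore not taken to pair the arrays, although both replicate 1 arrays stood apart on the second principal component. With the replicate block the adjusted p of Nans was 0.087, that of St6galnac4 0.114 and that of Rgs16 0.031.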
